A study of Homo sapiens with 12 samples.

Results

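The genes described here are 10 stress-response genes, grouped as bZIP factors and as feedback genes of the transcription factor ATF4. The bZIP transcription factor genes are ATF3, DDIT3, ATF5, CEBPB, CEBPG and JDP2. The genes TRIB3, CHAC1, NUPR1 and SESN2 encode proteins of other families. All 10 genes were chosen by symbol from the 57500 genes of the deposited count table, and each symbol belonged to 1 gene ID. All 10 were among the 27029 genes that passed the filter on low counts. RNA was sequenced from HCC1806 and MDA-MB-468, established cell lines of triple-negative breast cancer, with or without depletion of PACT by CRISPR-Cas9. PACT is a double-stranded RNA binding protein encoded by PRKRA, and the series title concerns its suppression of the kinase PKR, encoded by EIF2AK2. The 12 libraries form 4 groups of 3: HCC1806 with the control guide sgC1, HCC1806 with the PRKRA guide sgPACT-2, MDA-MB-468 with the control guide sgNTA, and MDA-MB-468 with sgPACT-2. A single guide against PRKRA was used, the control guide differed between the lines, and the labels do not say whether replicates were separate cultures or whether the cells were clones or pools. P-values therefore measure the spread between these libraries, which may be technical.

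PKR is one of the kinases that phosphorylate the translation factor eIF2alpha. This phosphorylation lowers general protein synthesis while favouring translation of the ATF4 mRNA, a cascade known as the integrated stress response. ATF4 binds DNA as a dimer with other bZIP proteins, among them CEBPB and CEBPG, and activates genes for amino acid supply, further transcription factors and regulators that feed back on the response. bZIP proteins hold a basic region that contacts DNA and a leucine zipper through which they pair, so the set of partners present in a cell affects which sites are bound.

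A C/EBP-ATF response element (CARE) joins a C/EBP and an ATF site, and its core was searched as TGATGNAA, where N is any base, on both strands of RefSeq promoter windows that run from 250 bases before to 50 after a transcript start (GRCh38.p14). Windows were found for 9 of the 10 genes, 19 windows in all. The core occurred in windows of ATF3, CEBPG, JDP2 and CHAC1, 4 of the 19 windows, and in 3.62% of all 35116 windows. The stretches that hold it are shown because these 4 genes span the range of changes seen after PACT depletion, from ATF3 and CHAC1 with the largest changes in HCC1806 to JDP2 with the smallest. Capitals mark the core, and the CHAC1 core lies on the opposite strand and is printed as its reverse complement.
ATF3, chr1:212565166-212565273, plus strand: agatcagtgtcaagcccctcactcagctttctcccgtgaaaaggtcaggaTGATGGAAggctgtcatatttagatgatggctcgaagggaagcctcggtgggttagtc
CHAC1, chr15:40953251-40953280, plus strand: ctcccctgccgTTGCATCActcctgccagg
CEBPG, chr19:33374021-33374112, plus strand: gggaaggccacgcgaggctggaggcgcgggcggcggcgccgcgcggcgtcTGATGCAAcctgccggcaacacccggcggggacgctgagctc
JDP2, chr14:75427956-75428021, plus strand: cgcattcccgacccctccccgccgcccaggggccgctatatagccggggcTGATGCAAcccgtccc
CEBPG, JDP2 and, on the opposite strand, CHAC1 hold the same 8 bases, and ATF3 has the variant TGATGGAA. The ATF3 core begins 191 bases before the annotated start and the CHAC1 core 209 bases before it, while those of CEBPG and JDP2 begin 42 and 16 bases before theirs. A match describes letters in the window and is not a measured binding site.

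The CCAAT box, bound by the factor NF-Y, was searched as CCAAT on both strands and occurred in 34.6% of all windows. It was found in 8 of the 19 windows, which belong to ATF3, DDIT3, CEBPB, CEBPG, CHAC1 and SESN2. Windows of CEBPG and CHAC1 hold at least a pair of boxes, and those of TRIB3, which rose in HCC1806, hold neither a box nor a CARE core. The upstream stretches of DDIT3 and SESN2, which also rose there and hold no CARE core in these windows, carry a pair of boxes each. These are shown in capitals with the reverse-strand form ATTGG.
DDIT3, chr12:57520536-57520664, minus strand: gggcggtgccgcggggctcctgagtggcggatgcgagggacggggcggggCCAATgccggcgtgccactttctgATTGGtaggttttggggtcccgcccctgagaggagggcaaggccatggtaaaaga
SESN2, chr1:28259317-28259486, plus strand: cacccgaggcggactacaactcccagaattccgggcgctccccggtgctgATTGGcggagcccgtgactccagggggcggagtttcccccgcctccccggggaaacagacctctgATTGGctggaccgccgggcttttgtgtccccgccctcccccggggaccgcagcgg
The AP-1 site, searched as TGANTCA, was found in windows of DDIT3 and ATF5, in 3 of the 19 windows and in 7.71% of all windows. The cAMP response element TGACGTCA and the C/EBP palindrome TTGCGCAA were found in 0 of the 19 windows, against 1.85% and 0.151% of all windows.

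HCC1806 libraries held 18640633 to 24704877 counts and MDA-MB-468 libraries 34581754 to 44790741, and mitochondrial genes took 11.6% to 15.0% and 6.31% to 8.90% of them. Levels below are counts per 1000000 counts of a library (CPM), scaled between libraries by the trimmed mean of M-values (TMM). The targeted transcript, PRKRA, measured 78.6, 82.6 and 72.1 CPM with sgC1 and 37.5, 36.1 and 37.3 CPM with sgPACT-2 in HCC1806, a log2 change of -1.07 (SE 0.10, adjusted p = 1.7e-05). In MDA-MB-468 it measured 41.1, 45.9 and 46.9 CPM with sgNTA and 39.2, 35.5 and 41.6 CPM with sgPACT-2, a log2 change of -0.20 that missed the threshold (SE 0.10, adjusted p = 0.958), and the groups overlapped. Transcript counts do not measure the protein. Of the epithelial markers examined, EPCAM ranged from 108 to 232 CPM over both lines, and the summed level of all 8 was 2564 to 3115 CPM in HCC1806 controls and 1800.3 to 2026 CPM after depletion. In MDA-MB-468 these sums overlapped, at 4881 to 5348 and 4427 to 5351 CPM. EPCAM and KRT19 were lower after depletion in that line without overlap, and the other markers of the set overlapped. EPCAM was at 171.3 to 186.8 CPM in MDA-MB-468 controls and 159.9 to 170.2 CPM after depletion. KRT19 was at 917 to 1034 and 759 to 906 CPM. The markers did not move together in HCC1806. There EPCAM, CDH1 and KRT5 were lower after depletion without overlap, and KRT8, KRT18, KRT19 and KRT14 overlapped. KRT17 was higher there, at 25.8 to 31.4 CPM after depletion against 17.0 to 21.2 CPM in controls. The leukocyte markers PTPRC and CD3E stayed at or below 0.585 CPM in every library, whereas CD14 in MDA-MB-468 was 89.0 to 106 CPM with sgNTA and 76.6 to 80.1 CPM with sgPACT-2. The fibroblast marker COL1A1 was 28.2 to 48.3 CPM in HCC1806 and 16.8 to 21.5 CPM in MDA-MB-468, while COL1A2, PDGFRA and DCN were at most 1.30 CPM. The endothelial markers PECAM1, VWF and CDH5 were at most 3.2 CPM. PGR was at most 0.30 CPM and ESR1 was 6.27 to 24.2 CPM. The summed level of PGR, ESR1 and ERBB2 was also lower after depletion without overlap, at 200.4 to 232 against 166 to 181 CPM in HCC1806 and 143 to 152 against 131 to 139 CPM in MDA-MB-468. ERBB2 made up most of this sum, at 181 to 209 against 142 to 162 CPM in HCC1806 and 136 to 145 against 124 to 132 CPM in MDA-MB-468. ESR1 overlapped between control and depleted libraries in both lines. The part of these marker differences in the results of either line was not tested.

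In HCC1806, 6 of the 10 genes rose after PACT depletion and 0 fell: ATF3, DDIT3, CEBPB, TRIB3, CHAC1 and SESN2. A gene counted as changed at an adjusted p under 0.05 in edgeR's quasi-likelihood test with Benjamini-Hochberg adjustment over all genes, a rule by which 1.16% of all tested genes rose and 1.32% fell. That is 314 genes up and 358 down, and scaling by library size alone gave 647 up and 146 down. The log2 change was positive for all 10 genes, with a median of 0.83 against 0.01 over all tested genes. In MDA-MB-468, ATF3 alone passed the threshold, where 0.170% of all tested genes rose and 0% fell in edgeR, with 1424 genes at an unadjusted p under 0.05 in either direction and 12 genes falling in DESeq2. There, 9 of 10 log2 changes were positive, and the median was 0.33 against -0.005 over all genes. The CPM of the depleted libraries lay entirely above those of the controls for 8 of 10 genes in HCC1806 and for 7 of 10 in MDA-MB-468, as they did for 8.51% and 6.20% of all tested genes. In a bulk library, more RNA per cell and more cells expressing a gene cannot be told apart.

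**Figure D1:**
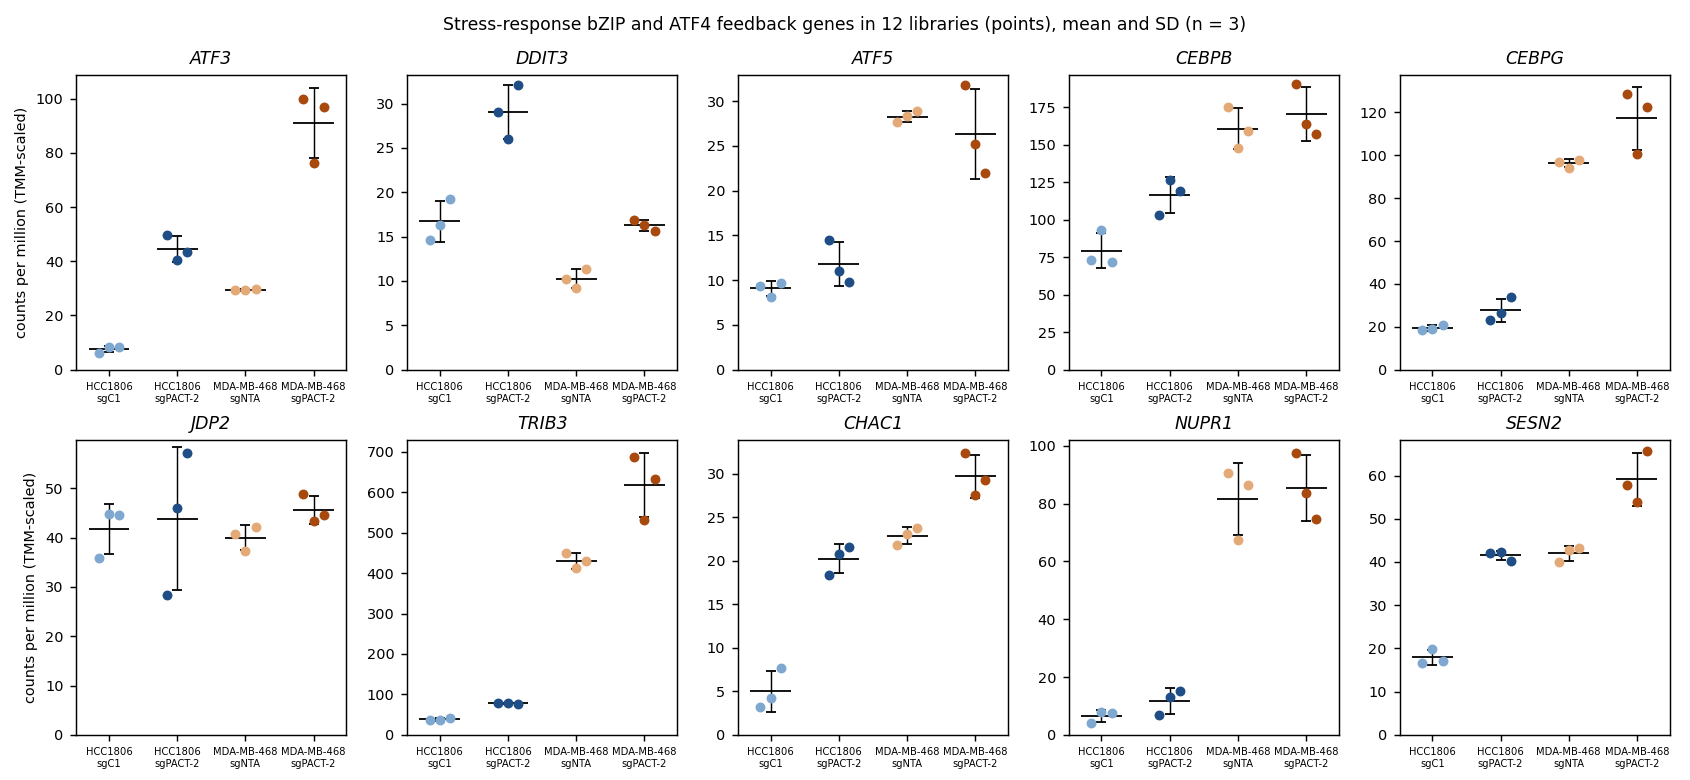
CPM of each of the 10 genes in the 12 libraries (points), with the mean and SD of each group of 3; the vertical axes start at 0 and differ between genes. The ATF3 libraries with sgPACT-2 sit above the controls in both lines, at 40.4 to 49.6 against 6.13 to 8.30 CPM in HCC1806 and at 76.4 to 100.1 against 29.2 to 29.9 CPM in MDA-MB-468.

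ATF3 encodes a stress-induced bZIP factor that is a direct target of ATF4 and can repress transcription as a homodimer. The gene lies at chr1:212565334-212620777 on the plus strand (GENCODE 29, GRCh38). In HCC1806 it measured 6.13, 8.28 and 8.30 CPM with sgC1 and 49.6, 40.4 and 43.3 CPM with sgPACT-2. Every depleted library was above every control, and the mean went from 7.57 ± 1.25 to 44.4 ± 4.71 CPM (SD, n = 3), a log2 change of 2.55 (SE 0.14, adjusted p = 3.2e-08). The MDA-MB-468 libraries had 29.3, 29.2 and 29.9 CPM with sgNTA and 100.1, 76.4 and 97.1 CPM with sgPACT-2. These groups did not overlap either, and the mean rose from 29.5 ± 0.350 to 91.2 ± 12.9 CPM, a log2 change of 1.63 (SE 0.13, adjusted p = 7.9e-06). ATF3 ranked first of all tested genes by p-value in HCC1806 and 2nd in MDA-MB-468. The difference of the responses, MDA-MB-468 minus HCC1806, was -0.92 (SE 0.19) and missed the threshold (adjusted p = 0.0763).

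JDP2, a close relative of ATF3 that represses AP-1 and ATF sites, showed the smallest log2 change of the 10 in HCC1806. It lies at chr14:75427716-75474111 on the plus strand. JDP2 measured 35.8, 44.7 and 44.6 CPM with sgC1 and 28.3, 45.9 and 57.1 CPM with sgPACT-2, so that the depleted libraries lay on both sides of the controls. The log2 change was 0.07 (SE 0.18, adjusted p = 0.924). In MDA-MB-468 the values were 40.7, 37.2 and 42.1 CPM with sgNTA and 48.8, 43.3 and 44.6 CPM with sgPACT-2. The groups did not overlap, but the log2 change of 0.19 (SE 0.18) missed the threshold (adjusted p of 1).

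DDIT3 encodes CHOP, a bZIP factor that pairs with C/EBP proteins and is known for promoting cell death under prolonged stress. It lies at chr12:57516588-57521737 on the minus strand. In HCC1806 it measured 14.6, 16.3 and 19.2 CPM with sgC1 and 29.1, 26.0 and 32.1 CPM with sgPACT-2. All depleted libraries exceeded the controls, and the log2 change was 0.80 (SE 0.13, adjusted p = 0.00414). Fitted on the HCC1806 libraries alone, DDIT3 missed the threshold at a log2 change of 0.82 (adjusted p = 0.0607). DDIT3 in MDA-MB-468 measured 10.2, 9.25 and 11.4 CPM with sgNTA and 16.8, 16.4 and 15.6 CPM with sgPACT-2. All 3 depleted libraries were above the controls, and the log2 change of 0.66 (SE 0.13) missed the threshold in the model of both lines (adjusted p = 0.0611) and passed it with that line fitted alone (adjusted p = 4.1e-04). The difference between lines was -0.14 (SE 0.19, adjusted p = 0.917).

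DDIT3 shares 355 exon bases with MARS and 58 with MBD6 on the opposite strand, and the strand setting of the counting is not given in the sources used here, so its counts are uncertain. MARS, the methionyl-tRNA synthetase gene, had a log2 change of 0.07 in HCC1806 and -0.05 in MDA-MB-468, and MBD6 had 0.36 and -0.05; these 4 values all missed the threshold.

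The C/EBP genes encode bZIP partners of ATF4 and CHOP. CEBPB, which makes activating and inhibitory protein forms, lies at chr20:50190734-50192689 on the plus strand. It measured 73.3, 92.7 and 71.7 CPM with sgC1 and 103, 126 and 119 CPM with sgPACT-2 in HCC1806. Depleted and control values were apart, and the log2 change was 0.55 (SE 0.12, adjusted p = 0.0235). The gene lost this call when HCC1806 was fitted alone (adjusted p = 0.172), and without control replicate 1, control replicate 3 or depleted replicate 2 of HCC1806 (adjusted p = 0.0948, 0.0843 and 0.0878). In MDA-MB-468 it measured 175, 148 and 159 CPM with sgNTA and 191, 164 and 157 CPM with sgPACT-2, which overlap, at a log2 change of 0.09 (SE 0.12, adjusted p of 1). The antisense gene CEBPB-AS1 shares 231 exon bases with CEBPB, but held 574 counts over all libraries against 48847 for CEBPB.

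CEBPG encodes a C/EBP protein that lacks an activation domain of its own and works as a heterodimer partner. It lies at chr19:33373330-33382686 on the plus strand. In HCC1806 it measured 18.4, 18.9 and 20.8 CPM with sgC1 and 22.9, 26.2 and 33.7 CPM with sgPACT-2. Depleted values were all above the controls, and the log2 change of 0.51 (SE 0.13) just missed the threshold (adjusted p = 0.0517). With the replicate number as a block the adjusted p was 0.00549. CEBPG in MDA-MB-468 measured 97.1, 94.2 and 97.6 CPM with sgNTA and 129, 101 and 123 CPM with sgPACT-2. The groups did not overlap; the log2 change of 0.29 (SE 0.13) missed the threshold in the model of both lines (adjusted p = 0.916) and passed it with the line fitted alone (log2 change 0.30, adjusted p = 0.0293).

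ATF5, a bZIP factor under translational control like ATF4 and linked to the mitochondrial unfolded protein response, lies at chr19:49928702-49933935 on the plus strand. It measured 9.38, 8.15 and 9.70 CPM with sgC1 and 14.5, 11.0 and 9.78 CPM with sgPACT-2 in HCC1806. The lowest depleted library was just above the highest control, and the log2 change of 0.37 (SE 0.16) missed the threshold (adjusted p = 0.305). In MDA-MB-468 the values were 27.7, 28.3 and 28.9 CPM with sgNTA and 31.8, 25.1 and 22.0 CPM with sgPACT-2. The depleted libraries lay above and below the controls, and the log2 change was -0.10 (SE 0.15, adjusted p of 1), the only negative value of the 10 genes in either line. ATF5 shares 626 exon bases with NUP62 on the opposite strand, and its counts are uncertain for the same reason as those of DDIT3.

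**Figure D2:**
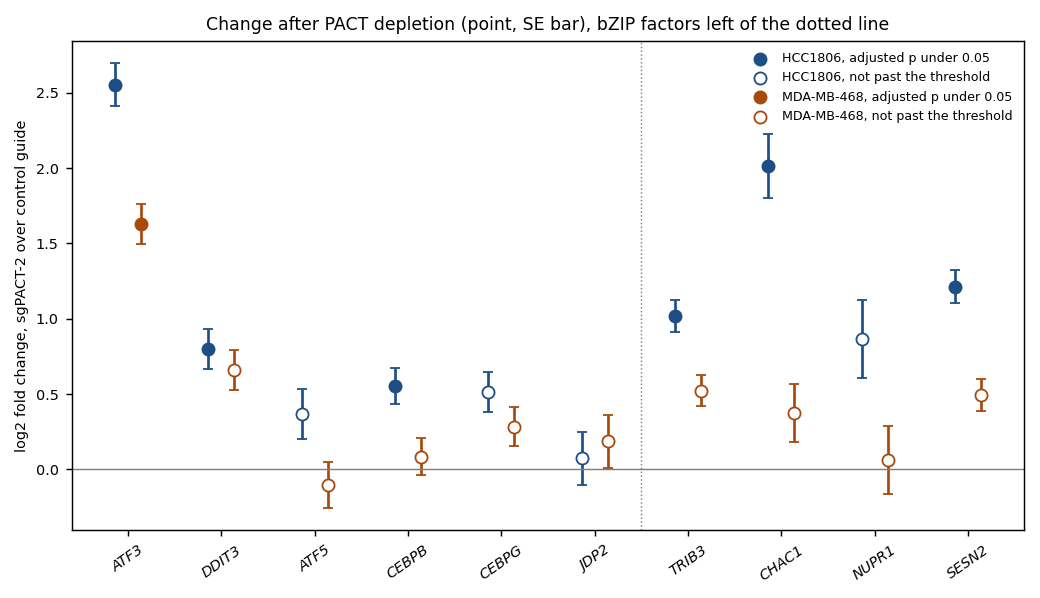
Log2 change after PACT depletion, sgPACT-2 over the control guide, for each gene and line; bars are the SE of the model, and filled points have an adjusted p under 0.05. In HCC1806 the values run from 0.07 (JDP2) to 2.55 (ATF3) and in MDA-MB-468 from -0.10 (ATF5) to 1.63 (ATF3).

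Of the 4 genes that do not encode bZIP proteins, 3 rose in HCC1806. TRIB3 encodes a pseudokinase that binds ATF4 and CHOP and restrains their activity. It lies at chr20:362835-397559 on the plus strand. TRIB3 measured 35.9, 37.4 and 42.0 CPM with sgC1 and 79.1, 77.6 and 76.8 CPM with sgPACT-2 in HCC1806. The depleted libraries lay close together and above all controls, at a log2 change of 1.02 (SE 0.11, adjusted p = 4.4e-05). In MDA-MB-468 it measured 449.6, 412 and 429 CPM with sgNTA and 688, 531 and 633 CPM with sgPACT-2. Control and depleted values were apart, and the log2 change of 0.52 (SE 0.10) missed the threshold in the model of both lines (adjusted p = 0.0553) and passed it with the line fitted alone (adjusted p = 1.3e-05).

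SESN2 encodes sestrin 2, a leucine-binding stress protein that restrains the growth kinase complex mTORC1. It lies at chr1:28259527-28282491 on the plus strand. In HCC1806 it measured 16.7, 19.9 and 17.2 CPM with sgC1 and 42.0, 42.3 and 40.3 CPM with sgPACT-2. No library of either group came near the other, and the log2 change was 1.21 (SE 0.11, adjusted p = 1.1e-05). SESN2 in MDA-MB-468 measured 40.0, 42.8 and 43.3 CPM with sgNTA and 57.7, 53.8 and 65.8 CPM with sgPACT-2. The groups did not overlap; the log2 change of 0.49 (SE 0.11) missed the threshold in the model of both lines (adjusted p = 0.0848) and passed it with the line fitted alone (adjusted p = 2.2e-04).

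CHAC1 encodes a gamma-glutamylcyclotransferase that degrades glutathione. It lies at chr15:40952962-40956519 on the plus strand. In HCC1806 it measured 3.17, 4.21 and 7.67 CPM with sgC1 and 18.4, 20.8 and 21.6 CPM with sgPACT-2. The control libraries differed among themselves more than the depleted ones, yet the groups were far apart, with means of 5.01 ± 2.35 and 20.2 ± 1.66 CPM (SD, n = 3) and a log2 change of 2.01 (SE 0.22, adjusted p = 5.8e-05). The MDA-MB-468 libraries had 21.8, 23.1 and 23.8 CPM with sgNTA and 32.4, 27.6 and 29.3 CPM with sgPACT-2. The groups did not overlap; the log2 change of 0.38 (SE 0.19) missed the threshold in the model of both lines (adjusted p = 0.975) and passed it with the line fitted alone (adjusted p = 0.0162).

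NUPR1 encodes a small stress-induced chromatin protein and lies at chr16:28532708-28539174 on the minus strand. It measured 4.04, 7.74 and 7.67 CPM with sgC1 and 6.71, 13.3 and 15.2 CPM with sgPACT-2 in HCC1806. The lowest depleted library fell within the controls, and the log2 change of 0.87 (SE 0.26) missed the threshold (adjusted p = 0.0934). With the replicate number as a block, NUPR1 passed at a log2 change of 0.84 (adjusted p = 5.8e-04). In that blocked fit 8 of the 10 genes rose in HCC1806, CEBPG and NUPR1 being the additional ones, where 2.60% of all tested genes rose. In MDA-MB-468 the values were 90.8, 67.4 and 86.3 CPM with sgNTA and 97.4, 83.7 and 74.7 CPM with sgPACT-2, which overlap, at a log2 change of 0.07 (SE 0.23, adjusted p of 1).

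The model of both lines shares 1 estimate of the spread, while the biological coefficient of variation was 0.204 with HCC1806 fitted alone and 0.0936 with MDA-MB-468 fitted alone. With each line fitted alone, 4 of the 10 genes rose in HCC1806 (ATF3, TRIB3, CHAC1 and SESN2), where 0.277% of the genes tested in that fit rose. In MDA-MB-468 6 of the 10 rose (ATF3, DDIT3, CEBPG, TRIB3, CHAC1 and SESN2), where 1.21% of the genes tested rose. ATF3, TRIB3, CHAC1 and SESN2 thus passed the threshold in both lines by these fits.

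**Figure D3:**
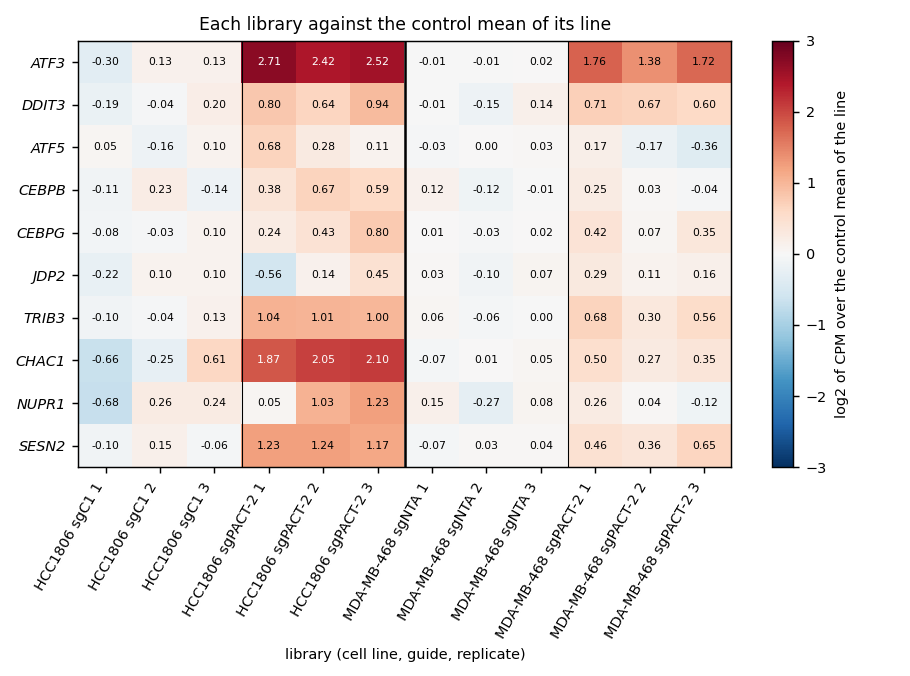
Log2 of each library's CPM over the control mean of its line, for 10 genes (rows) and 12 libraries (columns); red is above the control mean and blue below. ATF3 reads 2.42 to 2.71 in the HCC1806 libraries with sgPACT-2 and 1.38 to 1.76 in those of MDA-MB-468, and JDP2 reads -0.56 in depleted replicate 1 of HCC1806.

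The map of single libraries shows how evenly the genes moved. The median of the 10 log2 ratios to the control mean was 0.74, 0.84 and 0.97 in the HCC1806 libraries with sgPACT-2, and 9, 10 and 10 of the genes were above that mean. In MDA-MB-468 the medians were 0.44, 0.19 and 0.35, with 10, 9 and 7 genes above. SESN2 and TRIB3 varied little between depleted HCC1806 libraries, at 1.17 to 1.24 and 1.00 to 1.04. NUPR1 and JDP2 spread most, at 0.05 to 1.23 and -0.56 to 0.45. Replicate 1 of the depleted HCC1806 libraries was the lowest for NUPR1, JDP2, CEBPG, CEBPB and CHAC1 and the highest for ATF5, ATF3 and TRIB3.

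The difference between the responses of the lines, taken as the interaction term of the model, was negative for 9 of the 10 genes, so that the log2 change was smaller in MDA-MB-468. The median was -0.48, against -0.005 over all tested genes. CHAC1 alone passed the threshold, with a difference of -1.64 (SE 0.29, adjusted p = 0.0338), where 0.0999% of all tested genes were lower in this sense and 0.0222% higher. SESN2 was at -0.72 (SE 0.15, adjusted p = 0.0941), NUPR1 at -0.80 (SE 0.34, adjusted p = 0.532) and TRIB3 at -0.50 (SE 0.15, adjusted p = 0.283). CEBPB and ATF5 were both at -0.47, CEBPG at -0.23 and JDP2 at 0.12, and all 4 missed the threshold. Leaving out 1 library at a time kept the CHAC1 difference between -2.07 and -1.37, but it stayed past the threshold only without HCC1806 control replicate 3, depleted replicate 1 or depleted replicate 3, and its adjusted p ranged from 7.5e-04 to 0.134. With the replicate number as a block, 5 genes passed (ATF3, TRIB3, CHAC1, NUPR1 and SESN2), where 0.474% of all tested genes were lower.

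The control libraries of the lines differed in most of these genes. Of the 10, 8 were higher in MDA-MB-468 with sgNTA than in HCC1806 with sgC1 and 1 (DDIT3) was lower, where 34.2% and 40.1% of all tested genes were higher and lower. Line and control guide cannot be told apart here. The log2 difference was 3.65 for NUPR1 (SE 0.26, adjusted p = 9.8e-10) and 3.48 for TRIB3 (SE 0.11, adjusted p = 4.4e-14). It was 2.31 for CEBPG, 2.19 for CHAC1, 1.96 for ATF3, 1.64 for ATF5, 1.23 for SESN2 and 1.02 for CEBPB. DDIT3 was lower by a log2 difference of -0.70 (SE 0.14, adjusted p = 1.7e-04), and JDP2 was at -0.06 (SE 0.18, adjusted p = 0.766).

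**Figure D4:**
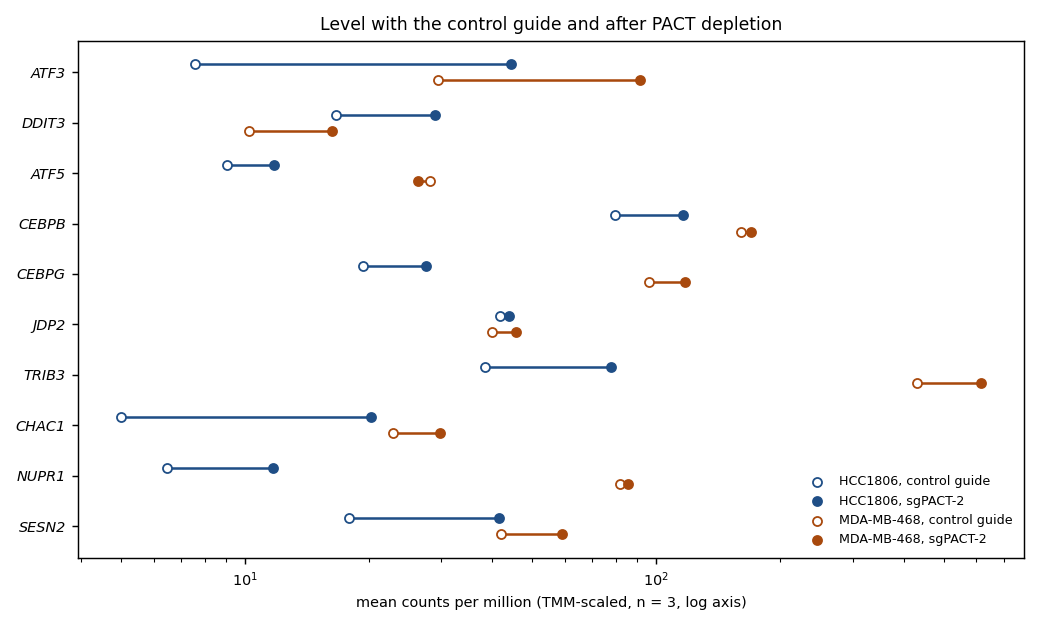
Mean CPM of each gene with the control guide (open) and with sgPACT-2 (filled) in each line, joined by a line, on a log axis (n = 3 libraries a point). CHAC1 in MDA-MB-468 controls (22.9 CPM) sits near CHAC1 in depleted HCC1806 (20.2 CPM), and the same holds for SESN2 at 42.0 and 41.5 CPM. CEBPG (96.3 and 27.6 CPM) and NUPR1 (81.5 and 11.7 CPM) are among the genes that are far apart.

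The levels of control MDA-MB-468 cells and depleted HCC1806 cells are set side by side here without a test. SESN2 averaged 42.0 ± 1.74 CPM in the former and 41.5 ± 1.05 CPM in the latter (SD, n = 3), and the libraries overlapped. CHAC1 averaged 22.9 ± 1.00 and 20.2 ± 1.66 CPM, and its libraries did not overlap, at 21.8 to 23.8 and 18.4 to 21.6 CPM. ATF3 averaged 29.5 ± 0.350 and 44.4 ± 4.71 CPM. CEBPG was at 96.3 and 27.6 CPM, NUPR1 at 81.5 and 11.7 CPM and ATF5 at 28.3 and 11.8 CPM. CEBPB was at 161 and 116 CPM and JDP2 at 40.0 and 43.8 CPM. TRIB3 was far apart, at 430.0 ± 19.1 and 77.8 ± 1.17 CPM, and DDIT3 lay the other way, at 10.3 ± 1.06 and 29.1 ± 3.06 CPM.

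Levels of different genes were compared per kilobase of annotated exon. The length was the union of all annotated exons, 5.674 kb for NUPR1. Where the expressed transcript is shorter than this union the value is too low, so the order of genes is uncertain. In HCC1806 controls CEBPB had the highest level, 40.5 ± 6.00 CPM per kb (SD, n = 3), followed by DDIT3 (11.2 to 14.7) and TRIB3 (10.5 to 12.2), whose libraries overlapped. CHAC1 (1.54 to 3.73) and ATF3 (1.52 to 2.05) were near the lower end and also overlapped. After depletion in that line ATF3 averaged 11.0 CPM per kb, close to SESN2 at 12.0. In MDA-MB-468 controls TRIB3 was highest at 125.2 CPM per kb, above CEBPB at 82.1, and JDP2 was lowest at 6.41. After depletion there, ATF3 went from 7.30 to 22.6 CPM per kb and on average passed NUPR1, SESN2, CHAC1, ATF5 and DDIT3, though its lowest library lay below the highest of SESN2.

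Across the 12 libraries, with each line's mean log2 CPM subtracted, the 10 genes gave 45 pairwise Pearson correlations, of which 44 were positive, with a median r of 0.727. These points share library, depth and the contrast of guides, so the values are descriptions. The highest was ATF3 with TRIB3 (r = 0.983), and ATF3 with SESN2 gave 0.972. The lowest was ATF5 with JDP2 (r = -0.482). Over the 6 libraries of each line, 44 of 45 pairs (HCC1806) and 39 of 45 (MDA-MB-468) were positive, with medians of 0.785 and 0.727. The 6 negative pairs in MDA-MB-468 all involved ATF5, down to r = -0.478 with SESN2, while ATF5 with JDP2 gave -0.63 in HCC1806 and 0.059 in MDA-MB-468. Among the 15908 other genes that averaged 50 counts or more, those most like ATF3 by the same measure were RELB (r = 0.976), NFKB2 (0.973), PPP1R15A (0.963), WHAMM (0.960) and KLF4 (0.957). RELB, which encodes an NF-kappaB subunit, had log2 changes of 2.31 in HCC1806 (SE 0.13, adjusted p = 3.2e-08) and 1.07 in MDA-MB-468 (SE 0.12, adjusted p = 4.0e-04). The difference between lines was -1.24 (SE 0.18, adjusted p = 0.00674). Since RELB was picked for its likeness to ATF3 over the same libraries, these values are not independent of the choice. Those most like DDIT3 were RASSF9 (0.967), IKBKE (0.965), ZNF554 (0.963), INHBE (0.955) and PPP1R15A (0.936).

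The steps that lead to and from eIF2alpha and ATF4 were followed in a list of 13 genes. Of these, 1 rose in each line and 0 fell. Of all tested genes, 1.16% rose and 1.32% fell in HCC1806, and 0.170% and 0% in MDA-MB-468. The list had a median log2 change of -0.02 (HCC1806) and 0.06 (MDA-MB-468). The riser was PPP1R15A, which encodes the stress-induced regulatory subunit of a phosphatase that dephosphorylates eIF2alpha. It went from 123 to 318 CPM in HCC1806 (log2 change 1.37, SE 0.12, adjusted p = 1.1e-05) and from 55.0 to 127 CPM in MDA-MB-468 (1.20, SE 0.12, adjusted p = 1.4e-04). Its constitutive relative PPP1R15B had log2 changes of 0.29 (adjusted p = 0.0935) and 0.10 (adjusted p of 1). EIF2AK2 was at -0.39 (SE 0.11, adjusted p = 0.0664) in HCC1806 and -0.003 in MDA-MB-468. It missed the threshold in HCC1806, though every depleted library there (156, 169 and 186 CPM) was below every control (245, 231 and 195 CPM). EIF2B2, a subunit of the exchange factor eIF2B, was at 0.07 and 0.14 in the 2 lines. The ATF4 transcript measured 133, 132 and 145 CPM with sgC1 and 147, 127 and 132 CPM with sgPACT-2 in HCC1806. In MDA-MB-468 it measured 797, 788 and 777 CPM with sgNTA and 825, 696 and 741 CPM with sgPACT-2. The groups overlapped in both lines, with log2 changes of -0.02 (SE 0.10, adjusted p = 0.966) and -0.06 (SE 0.10, adjusted p of 1). Translation of ATF4 was not measured by these libraries.

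**Figure D5:**
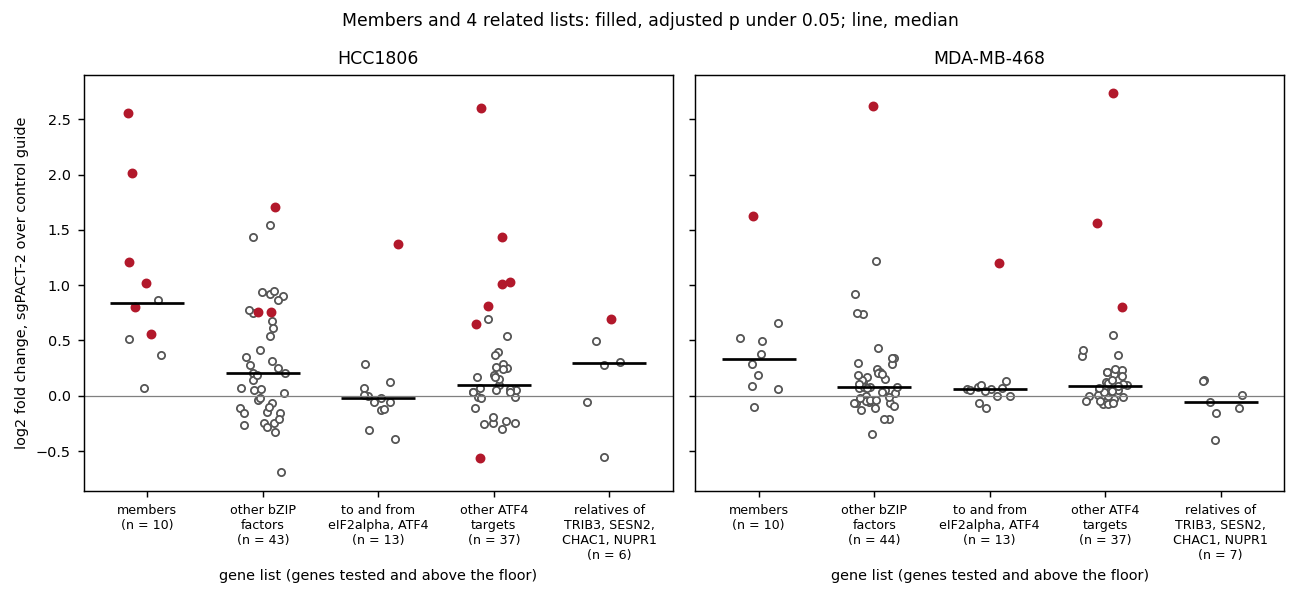
Log2 change after PACT depletion of the 10 genes and of 4 related lists in each line (one point per gene tested and above the count floor; filled, adjusted p under 0.05; bar, median). The 10 genes have medians of 0.83 (HCC1806) and 0.33 (MDA-MB-468), and those of the lists lie between -0.05 and 0.30.

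Of the other bZIP factor genes, 43 were tested and above the floor of 3 counts a library in HCC1806. Of these, 3 rose and 0 fell, against 1.16% and 1.32% of all tested genes, and the median log2 change was 0.20. CREB5 went from 3.09 to 10.1 CPM (log2 change 1.71, SE 0.32, adjusted p = 0.00835). NFIL3, a bZIP repressor, rose by 0.76 on the log2 scale (adjusted p = 0.0134), and MAFF, a small MAF protein without an activation domain, also by 0.76 (adjusted p = 0.0318). In MDA-MB-468, 1 of 44 rose, against 0.170% of all tested genes, and the median was 0.08. That gene was BACH2, which went from 0.448 to 2.79 CPM (log2 change 2.62, SE 0.46, adjusted p = 0.0216), while MAFF was at 0.75 (adjusted p = 0.135) and NFIL3 at 0.34 (adjusted p = 0.825).

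Of 37 further genes, listed as ATF4 targets, 6 rose and 1 fell in HCC1806 (all tested genes, 1.16% and 1.32%). In MDA-MB-468 3 rose and 0 fell (0.170% and 0%), and the median log2 changes were 0.10 and 0.09. INHBE, which encodes a secreted activin subunit, rose by 2.60 in HCC1806 (SE 0.24, adjusted p = 1.5e-05) and by 2.73 in MDA-MB-468 (SE 0.24, adjusted p = 1.9e-05) on the log2 scale. In HCC1806 the asparagine synthetase gene ASNS rose by 1.03 (adjusted p = 0.00133) and the cell death gene BBC3 by 1.43 (adjusted p = 0.00275). The amino acid transporter gene SLC7A5, named after its value was seen, fell there, with a log2 change of -0.56 (adjusted p = 0.00835). In MDA-MB-468 the stress hormone gene GDF15 rose by 1.57 (adjusted p = 0.00263) and the cysteine synthesis gene CTH by 0.80 (adjusted p = 0.0184). GDF15 was at 0.05 in HCC1806 (adjusted p = 0.951), and its difference between lines, 1.52 (SE 0.27, adjusted p = 0.0362), had the opposite sign to that of CHAC1. The closest relatives of TRIB3, SESN2, CHAC1 and NUPR1 had a median of 0.30 over 6 genes in HCC1806, of which 1 rose (STK40, log2 change 0.70, adjusted p = 0.0204), and of -0.05 over 7 genes in MDA-MB-468, of which 0 rose. SESN1 was at 0.50 (adjusted p = 0.107) and CHAC2 at -0.55 (adjusted p = 0.351) in HCC1806. TRIB2 was at 0.15, STK40 at 0.13 and NUPR2 at -0.40 in MDA-MB-468, each with an adjusted p of 1.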

How the data were processed

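Total RNA of 12 libraries was treated with DNase, depleted of rRNA and built into libraries with a NEBNext Ultra II RNA kit, per the labels' protocols. Per the submitters' processing notes, Trimmomatic 0.36, STAR 2.5.2b, featureCounts of Subread 1.5.2 and GRCh38 were used; the annotation release and the strand setting are not given in the sources used here. The deposited values are raw read counts per Ensembl gene, 1 column per library, not normalized. Coordinates, exon lengths and overlaps came from GENCODE 29 (GRCh38), which matched 56898 of 57500 gene IDs; promoter windows came from RefSeq (GRCh38.p14).

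Genes were filtered with filterByExpr, scaled by TMM and tested with edgeR 4.0.16 (R 4.3.3) in 1 two-sided quasi-likelihood model of all 12 libraries with 1 coefficient per group. Benjamini-Hochberg adjustment covered all 27029 genes, with a threshold of 0.05. CPM per kilobase used the union of exons. Figures were drawn with matplotlib 3.10.9 in Python 3.11.15. The steps were tested on simulated data.

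The 10 genes and the gene lists were chosen with earlier results of these data known. The rule for named genes took all 10 genes, PRKRA, EIF2AK2 and ATF4, of each list the 3 genes with the smallest p-value in each line, and the 5 genes most like ATF3 and DDIT3. Genes that overlap a named gene and cell type markers are named besides. Alternatives were DESeq2 1.42.0, limma 3.58.1 (voom with quality weights), other scalings, filters and thresholds, fits of 1 line only, a block for the replicate number, and leaving out each library. Same-numbered control and depleted libraries of HCC1806 deviated together (r = 0.479, 0.294 and 0.152, each over 0.1). Control replicate 2, however, correlated better with depleted replicate 3 (r = 0.351) than with depleted replicate 2. A pairing by number in that line would thus come from the data alone and is uncertain, since the labels do not say what a number stands for. The main model has no term for such a pairing, so the main calls ignore it. Fits with the replicate number as a block are given as alternatives.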

Additional observations from a re-analysis of the deposited data

Results flagged for a closer look

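The difference between the cell lines in the response to PACT depletion was itself tested (edgeR, MDA-MB-468 minus HCC1806). The response differed for 4 of the 38 named genes so tested. Of all tested genes, 0.0999% had a lower difference and 0.0222% a higher one by the same rule. Many of the named genes were picked for a small p-value within a line or for likeness to ATF3 or DDIT3 in these libraries. The count of 4 is therefore not a share to compare with that of all genes. For CHAC1 the log2 change was 2.01 in HCC1806 against 0.38 in the other line, a difference of -1.64 (SE 0.29, adjusted p = 0.0338). All 3 depleted libraries were above their controls in each line, and CHAC1 stood at 5.01 CPM in HCC1806 controls and at 22.9 CPM in MDA-MB-468 controls. The CHAC1 call held in 3 of the 12 fits that left out a library, where its adjusted p ranged from 7.5e-04 to 0.134, and it is lost at a threshold of 0.01. The other differences were -1.24 for RELB (adjusted p = 0.00674), 1.52 for GDF15 (adjusted p = 0.0362) and 0.87 for the targeted gene PRKRA (adjusted p = 0.0199). RELB was picked for its likeness to ATF3 in these libraries and GDF15 for its small p-value in MDA-MB-468. Their differences are therefore not independent of the choice. Groups of 3 libraries were not searched for outlying samples.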

How the results depend on the processing

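In HCC1806 the count of 6 genes that rose stayed within 1.5 times under each alternative run, at 4 with the line fitted alone (0.277% of all genes) to 8 with DESeq2 (1.81%), with no filter (1.30%) and with the replicate block (2.60%); leaving out single libraries gave 5 to 8. In MDA-MB-468 the count of 1 became 2 with library size only and with a mean of at least 50 counts, 3 with no filter, 4 with DESeq2, with limma voom and with the replicate block, and 6 with the line fitted alone; leaving out single libraries gave 1 to 4. Over all genes the share that rose in MDA-MB-468 was 0.226% with library size only, 0.276% with a mean of at least 50 counts, 0.286% with no filter, 0.374% with DESeq2, 0.403% with voom, 0.355% with the block and 1.21% fitted alone. The count of 1 gene with a different response became 0 at an adjusted p under 0.01 (6 at an unadjusted p under 0.05 in edgeR), 2 with library size only and with a mean of at least 50 counts, 3 with DESeq2, 4 with no filter and 5 with the replicate block, and leaving out single libraries gave 0 to 3 (5 to 7 at an unadjusted p under 0.05). The share of all genes with a lower response was 0.133%, 0.176%, 0.396%, 0.361% and 0.474% in the 5 settings from library size only to the replicate block, in the order given. The cause was not tested. The 9 genes that differed between controls were 9 in each fit that left out a library.

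Same-numbered MDA-MB-468 libraries gave r = 0.116, 0.075 and 0.106, and differently numbered ones -0.109 to 0.004. The same-numbered values were small but above all the others, and the labels do not say whether a number pairs these samples. With the replicate number as a block, DDIT3, TRIB3 and SESN2 passed there (adjusted p = 0.0136, 0.00358 and 0.0233). In HCC1806, control replicate 2 correlated best with depleted replicate 3 (r = 0.351). Scaling by library size alone moved the median of all genes to 0.13 in HCC1806 and -0.51 between controls.

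Values that changed sign did so only when 1 library was left out, and none passed the threshold. JDP2 ranged from -0.17 to 0.30 in HCC1806, reaching -0.17 without depleted replicate 3 and -0.03 without control replicate 1. Its difference between lines ranged from -0.10 to 0.37 and its difference between controls from -0.14 to 0.019. In MDA-MB-468 CEBPB ranged from -0.005 to 0.15, NUPR1 from -0.056 to 0.15 and ATF5 from -0.27 to 0.012. Without HCC1806 depleted replicate 1, CEBPG and NUPR1 passed in HCC1806 (adjusted p = 0.00341 and 0.00154), and ATF3 and SESN2 passed in the difference between lines (0.0350 and 0.0398). In MDA-MB-468, TRIB3 passed in 7 of 12 such fits, DDIT3 in 4 and SESN2 in 1. The smallest count of any of the 10 genes in a library was 76 (CHAC1, HCC1806 control replicate 1), so counting error weighs most on that gene and NUPR1.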
